A study of Mus musculus with 82 samples.

Results

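Primary hepatocytes and mouse embryonic fibroblasts (MEFs) from the same strain, both wild type (WT) and both given vehicle only, were set against each other on Affymetrix mouse expression arrays. The members are the 14 arrays of these groups, of 82 in the series, taken by the cell type, genotype and treatment in their labels: 10 arrays of WT hepatocytes and 4 arrays of WT MEFs. The hepatocyte arrays are 5 technical replicates of each of 2 preparations, and the 4 MEF arrays are technical replicates of cells for which the labels name no biological replicate. The series was made to find gene expression responses to activators of AMP-activated protein kinase (AMPK) that depend on AMPK. The comparison of the cell types under vehicle describes the backgrounds in which those responses were measured.

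All cells carried the C57BL/6 background and received dimethyl sulfoxide (DMSO) as vehicle for 4 h. Hepatocytes were freshly isolated by collagenase perfusion, attached on collagen in medium M199 with fetal calf serum, insulin, the thyroid hormone T3 and dexamethasone, and were then kept overnight in serum-free M199 with dexamethasone, a synthetic glucocorticoid. MEFs were cultured in DMEM with fetal calf serum and no dexamethasone is named for them. Cell type, embryonic origin, culture time, serum, substrate and glucocorticoid therefore differed together, and their parts in any difference below cannot be told apart. The MEF titles also carry P25, a label whose meaning is not stated. Cells lacking both catalytic subunits of AMPK (AMPK α1-/-/α2-/-, called dKO), with 9 hepatocyte arrays from 2 preparations and 4 arrays of technical replicates of MEFs under vehicle, served to repeat the comparison in other cells. Their hepatocyte preparations also enter the spread on which the tests of both genotypes rest.

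The hepatocyte is the parenchymal cell of the liver. It secretes most plasma proteins, makes bile acids, detoxifies foreign compounds, disposes of ammonia as urea and releases glucose in fasting, and in the adult liver it seldom divides. Its identity is held by a network of liver-enriched transcription factors, among them the HNF and FOXA families. Embryonic fibroblasts are mesenchymal cells that build and remodel collagen matrix, carry actin stress fibres, divide readily in serum and keep part of the positional code of homeobox (Hox) genes of the tissue they came from.

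Promoters of 6 genes called between the cell types are shown because each holds letters that match an element known from liver, actin or cell division genes. The windows run from 250 bases before to 50 bases after the annotated start and come from RefSeq on build GRCm38.p6, 5′ to 3′ on the gene's strand. Capitals mark the match. In the first 3, of genes higher in hepatocytes, it is to the HNF1 element, GTTAAT and ATTAAC set 1 base apart, with at most 2 of these 12 letters differing. In Cnn2, a calponin gene of the actin cytoskeleton lower in hepatocytes, it is to the CArG box of serum response factor. In Ube2c and Cep55, cell division genes lower in hepatocytes, it is to the cell cycle homology region TTTGAA. All searches covered both strands, and overlaps between elements were not counted. The windows lie at chr5:90460620-90460919 on the plus strand (Alb), chr3:83025903-83026202 on the plus strand (Fga), chr11:7197537-7197836 on the plus strand (Igfbp1), chr10:79988350-79988649 on the plus strand (Cnn2), chr2:164769679-164769978 on the plus strand (Ube2c) and chr19:38054734-38055033 on the plus strand (Cep55).
Alb: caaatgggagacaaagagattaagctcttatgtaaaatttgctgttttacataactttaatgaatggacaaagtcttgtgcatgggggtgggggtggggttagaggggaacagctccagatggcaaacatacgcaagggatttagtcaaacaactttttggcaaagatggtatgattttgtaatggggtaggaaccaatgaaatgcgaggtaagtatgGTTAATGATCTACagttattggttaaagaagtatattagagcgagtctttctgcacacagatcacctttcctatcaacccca
Fga: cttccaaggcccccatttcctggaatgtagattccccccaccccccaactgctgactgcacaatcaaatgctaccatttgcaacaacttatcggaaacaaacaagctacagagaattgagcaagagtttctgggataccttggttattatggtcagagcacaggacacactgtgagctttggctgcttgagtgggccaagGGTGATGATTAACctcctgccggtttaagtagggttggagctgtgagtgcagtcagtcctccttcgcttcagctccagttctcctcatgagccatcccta
Igfbp1: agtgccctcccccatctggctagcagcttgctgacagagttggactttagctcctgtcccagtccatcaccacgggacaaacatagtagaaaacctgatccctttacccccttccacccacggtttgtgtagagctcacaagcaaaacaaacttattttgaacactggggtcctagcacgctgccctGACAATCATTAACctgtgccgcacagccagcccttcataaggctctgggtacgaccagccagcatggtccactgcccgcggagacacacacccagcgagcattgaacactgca
Cnn2: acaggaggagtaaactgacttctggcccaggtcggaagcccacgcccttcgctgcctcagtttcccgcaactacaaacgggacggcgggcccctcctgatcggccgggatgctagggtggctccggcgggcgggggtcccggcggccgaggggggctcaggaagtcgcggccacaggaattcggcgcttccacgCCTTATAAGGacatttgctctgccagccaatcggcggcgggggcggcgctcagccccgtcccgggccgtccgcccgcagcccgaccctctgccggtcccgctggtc
Ube2c: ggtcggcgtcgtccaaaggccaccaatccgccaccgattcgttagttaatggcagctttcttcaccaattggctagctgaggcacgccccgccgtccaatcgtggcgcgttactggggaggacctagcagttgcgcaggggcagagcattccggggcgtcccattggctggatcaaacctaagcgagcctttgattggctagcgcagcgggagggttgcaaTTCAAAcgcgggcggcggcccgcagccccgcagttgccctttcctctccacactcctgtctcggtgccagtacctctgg
Cep55: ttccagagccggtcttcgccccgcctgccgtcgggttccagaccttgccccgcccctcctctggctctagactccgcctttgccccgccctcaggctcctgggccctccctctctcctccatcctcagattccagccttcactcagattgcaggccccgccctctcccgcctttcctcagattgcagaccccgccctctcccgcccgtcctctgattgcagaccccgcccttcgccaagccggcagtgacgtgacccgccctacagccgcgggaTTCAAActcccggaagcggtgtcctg

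Of 13833 tested genes with such a window, 186 (1.34%) held the HNF1 element in this form. The share was 8.47% (51 of 602) among genes at least 8-fold higher in WT hepatocytes and 0.835% (4 of 479) among genes at least 8-fold lower. Among lists it stood in 4 of 15 windows for coagulation, 1 of 19 for plasma proteins and 1 of 11 for apolipoproteins. TTTGAA stood in 15.5% of all windows, in 19.8% of those of genes at least 8-fold higher and in 23.8% of those of genes at least 8-fold lower. It stood in 12 of 21 windows of the cell cycle list (57.1%) and in 3 of 23 of the DNA replication list. CCAAT stood in 41.7% of all windows and in 15 of 21 of the cell cycle list. The CArG box stood in 1.57% of all windows and in 3 of 19 windows of the actin list. These shares describe letters in a fixed window, and elements and factor binding outside it were not examined.

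The 2 cell types differed across a large part of the transcriptome. Levels are log2 intensities after all arrays were brought to a common distribution, differences are WT hepatocytes minus WT MEFs on the log2 scale with their standard error (SE), and genes count as called when they differ at least 2-fold with an adjusted p under 0.05 (limma, Benjamini-Hochberg over 17404 autosomal genes). The fit holds 2 preparations of hepatocytes and 1 mean of the MEF arrays per genotype, so the MEF mean is assumed to vary like a hepatocyte preparation, and p-values do not measure the spread between MEF cultures. In all 5243 genes were called (30.1% of those tested), 2810 higher (16.1%) and 2433 lower (14%) in hepatocytes. At least 8-fold differences were called for 791 genes higher (4.54%) and 606 lower (3.48%), and at least 128-fold ones for 119 higher and 31 lower. The arrays of the 2 cell types did not overlap for 12511 genes (71.9%), so a lack of overlap by itself is common here. With the values as deposited, whose array medians differed between the cell types (5.9011 to 5.9845 in hepatocytes and 6.1996 to 6.2305 in MEFs), 2161 genes were higher and 3230 lower. The share of calls that were higher was then 40.1%, against 53.6% after normalization and 58.4% with ranks within each array, and the median difference of all genes was -0.12, against 0.10 after normalization.

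Replicates lay far closer to each other than the cell types did. Across genes, arrays of different cell types correlated at r = 0.8106 to 0.8209, arrays of different hepatocyte preparations at 0.9949 to 0.9965, and MEF arrays among themselves at 0.9972 to 0.9984, and no pair of arrays was identical. The median SD of a gene was 0.0608 between the preparations and 0.0747 between the MEF arrays. Of 82 called named genes with several probe sets, 31 had a probe set that missed 2-fold in the called direction. The values carry no detection calls. A level near the lower end of an array (the 10th percentile of genes is 4.06 in hepatocytes and 3.93 in MEFs) may be background, so folds against such levels may understate a difference, as may folds near the upper end (highest gene level in hepatocyte arrays, 14.72).

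**Figure D1:**
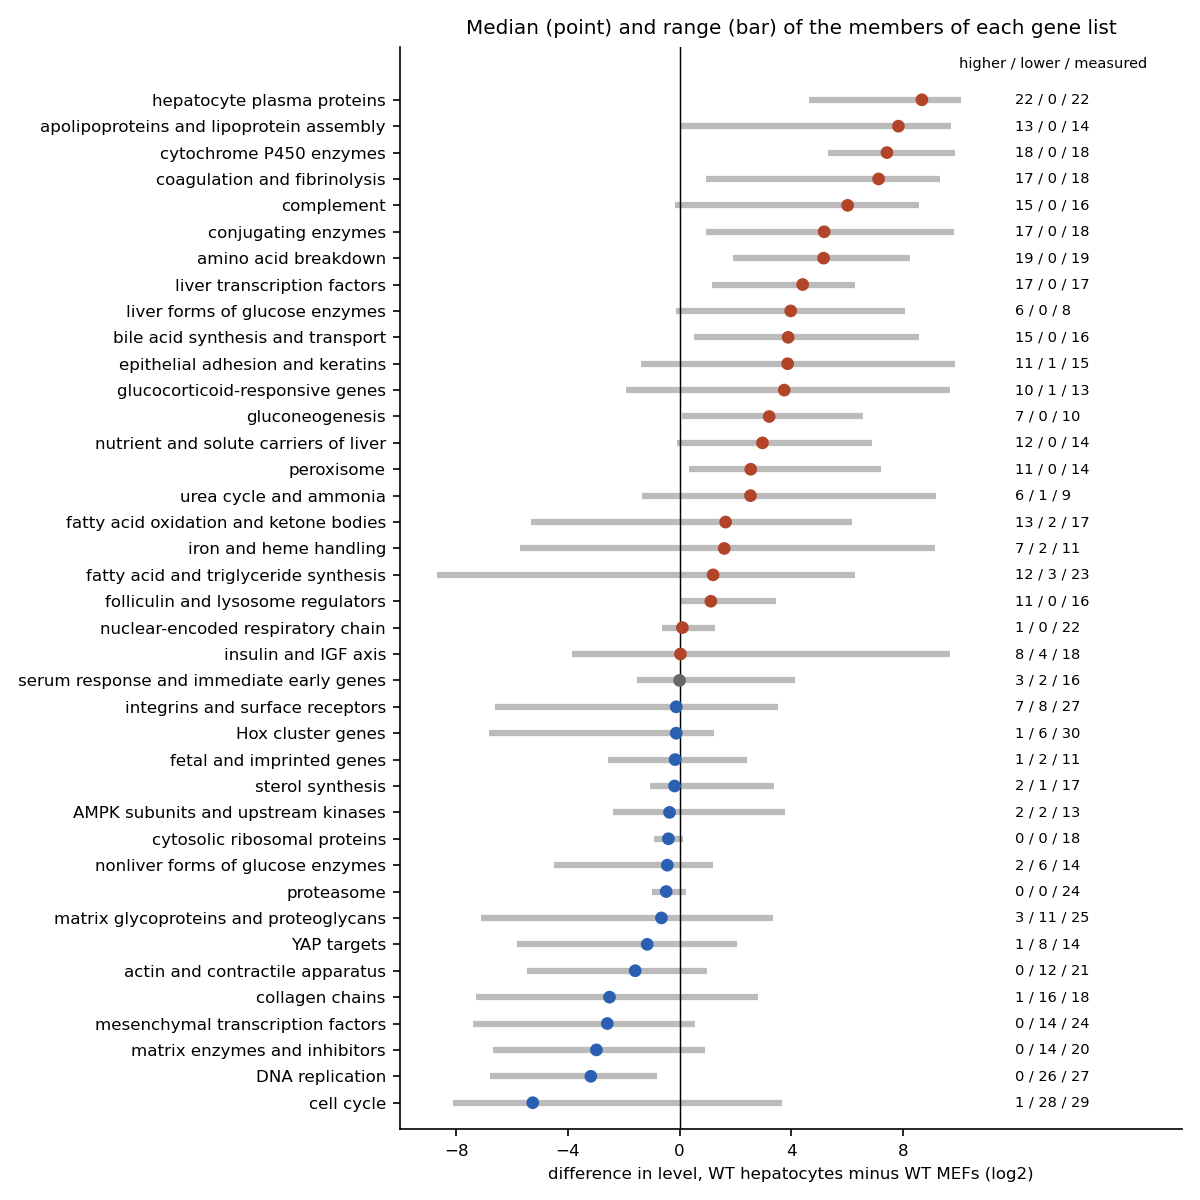
Difference in level between WT hepatocytes and WT MEFs (log2, x axis) for the measured members of each gene list (y axis), with the median as a point, the lowest to the highest member as a bar, and the number called higher, called lower and measured at the right. Plasma proteins have the highest median (8.68) and cell cycle genes the lowest (-5.26), and the lists of the respiratory chain, ribosome and proteasome stay near 0.

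The markers of each labelled cell type were examined first. All 9 measured hepatocyte markers were called higher in hepatocytes, with a median difference of 8.40, and their mean level by array was 13.03 to 13.16 in hepatocytes, against 5.15 to 5.25 in MEFs. Of 12 fibroblast markers 8 were called lower in hepatocytes and 1, the small proteoglycan gene Dcn, higher, with list means of 5.81 to 6.17 in hepatocyte arrays and 8.92 to 9.06 in MEF arrays. The remaining 3, Thy1 (-0.65), Postn (-0.18) and Fap (0.90), were not called, so these MEFs did not show every fibroblast marker above the hepatocyte level.

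Among markers of other liver cells, most of those of macrophages and endothelium were higher in the hepatocyte preparations as well. Of 14 Kupffer cell and macrophage markers 13 were called higher in hepatocytes, with mean levels of 8.30 to 8.75 in hepatocyte arrays and 4.94 to 5.00 in MEF arrays. C1qb, a chain of complement C1q made by macrophages, differed by 6.09 ± 0.274, and the lysosomal glycoprotein gene Cd68 by 5.60 ± 0.311. Of 13 liver endothelial markers 8 were higher (6.77 to 7.09 in hepatocyte arrays and 5.12 to 5.23 in MEF arrays), led by the hyaluronan receptor gene Lyve1 at 5.13 ± 0.292. When genes below the median level in both cell types were left out, 6 endothelial markers remained and 4 were higher. Stellate cell markers were divided, with 3 higher, such as Reln (2.62 ± 0.145, and 0.00 on its other probe set), and 2 lower, Lhx2 (-2.36 ± 0.065) and Ecm1 (-1.53 ± 0.193). Of 6 cholangiocyte (bile duct cell) markers none was higher and 2 were lower (33.3% called, beside 30.1% of all genes). Their means were 5.44 to 5.64 in hepatocyte arrays and 6.36 to 6.57 in MEF arrays. None of 9 lymphocyte and erythroid markers was called by limma, though 6 were higher with no fold limit, as were 7102 of all 17404 genes. Macrophage and endothelial markers were higher in preparation 2 (means of 8.71 and 7.06) than in preparation 1 (8.36 and 6.82). In such bulk samples fewer cells of a type and less RNA per cell cannot be told apart, and the part of these cells in the results below was not tested.

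**Figure D2:**
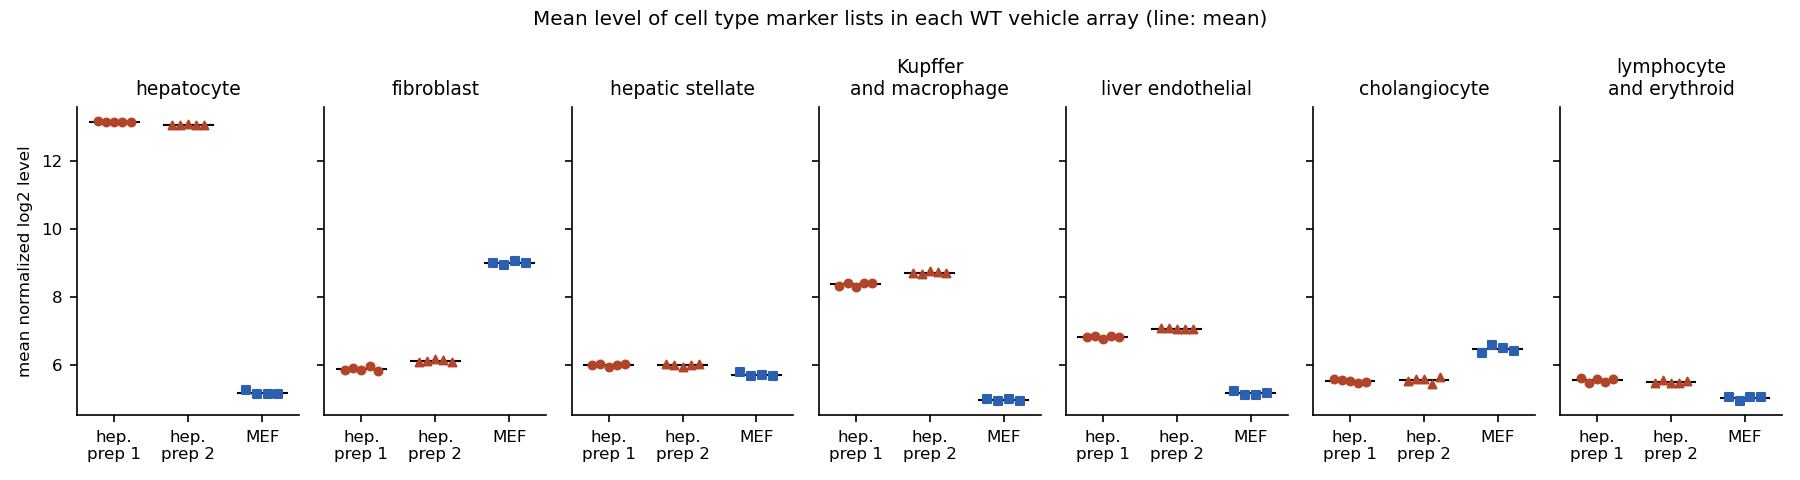
Mean normalized log2 level (y axis) of 7 lists of cell type markers in each WT vehicle array, with the 2 hepatocyte preparations at the left of each panel, MEFs at the right and a line at the mean. Hepatocyte markers sit above 13 in every hepatocyte array and near 5 in every MEF array, and macrophage and endothelial markers are higher in hepatocyte arrays.

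Plasma protein genes made up the group with the largest difference. All 22 measured members were called higher in hepatocytes, each by at least 8-fold, with a median of 8.68 beside 0.10 over all genes. Albumin (Alb), the main carrier protein of plasma, had levels of 14.67 to 14.72 (median 14.69) in the 10 hepatocyte arrays, against 5.32, 5.20, 5.09 and 5.17 in the 4 MEF arrays. No array of a cell type came near the other group, and the difference was 9.50 ± 0.068 (adjusted p = 3.91e-07, 723-fold). The retinol carrier gene Rbp4 had levels of 14.09 to 14.24 (median 14.16) in the 10 hepatocyte arrays, against 4.12, 4.02, 4.05 and 4.17 in the 4 MEF arrays, a difference of 10.07 ± 0.108. Orm1, an acute phase glycoprotein gene, stood at 13.41 to 13.61 (median 13.53) in the 10 hepatocyte arrays, against 3.43, 3.48, 3.48 and 3.42 in the 4 MEF arrays, again without overlap (10.07 ± 0.092). Serpina1b, an α1-antitrypsin gene, differed by 10.06 ± 0.079, Serpina1c by 9.86 ± 0.07 and Mup3, a major urinary protein gene, by 10.00 ± 0.118. These last 3 belong to families of near-identical genes, so their probe sets may also read relatives. The other probe set of Mup3 gave 0.3.

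Lcn2 and Saa1, acute phase genes outside that list, ranked among the 12 largest positive differences. Lcn2, which encodes an iron siderophore-binding protein, had levels of 13.99 to 14.19 (median 14.05) in the 10 hepatocyte arrays, against 3.29, 3.34, 3.24 and 3.61 in the 4 MEF arrays (10.71 ± 0.102, 1670-fold). Saa1, a serum amyloid A gene whose probe set may also read its close copies, stood at 13.96 to 14.03 (median 13.98) in the 10 hepatocyte arrays, against 3.95, 4.05, 3.93 and 3.99 in the 4 MEF arrays (10.00 ± 0.077). The same rank list held Aldh1a1, a retinaldehyde dehydrogenase gene, with the largest difference of the 12: 13.87 to 14.01 in hepatocyte arrays (median 13.93) and 3.29, 3.04, 3.17 and 3.12 in MEF arrays, 10.78 ± 0.088 or 1760-fold. The lipid droplet enzyme gene Hsd17b13 differed by 10.37 ± 0.319 and the microsomal glutathione transferase gene Mgst1 by 10.03 ± 0.079. For Hsd17b13 the probe set with the highest level in MEFs gave only 0.75, and the other probe set of Mgst1 gave 0.93.

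Genes of coagulation were higher in hepatocytes for 17 of 18 members, all 17 by at least 8-fold, with a median of 7.13. The fibrinogen α chain gene Fga, whose promoter is printed above, had levels of 12.10 to 12.39 (median 12.25) in the 10 hepatocyte arrays, against 2.88, 2.79, 3.10 and 2.88 in the 4 MEF arrays (9.33 ± 0.211, adjusted p = 2.04e-06). The γ chain gene Fgg differed by 8.50 ± 0.162 and kininogen (Kng1) by 8.83 ± 0.086. The member that was not called was Pros1, which encodes protein S (0.96 ± 0.223). Complement genes were higher for 15 of 16 with a median of 6.02, led by the lectin gene Mbl2 (8.59 ± 0.186), C9 (7.74 ± 0.16) of the membrane attack complex and the protease gene C1s1 (7.48 ± 0.177). Masp1, a protease of the lectin pathway, was not called in WT (-0.18 ± 0.125). Apolipoprotein and lipoprotein assembly genes were higher for 13 of 14, with a median of 7.84, and Scarb1, the receptor for high density lipoprotein, was not called (0.02 ± 0.095).

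Among the apolipoproteins, Apoc3, an inhibitor of lipoprotein lipase, had levels of 14.04 to 14.19 (median 14.09) in the 10 hepatocyte arrays, against 4.30, 4.41, 4.45 and 4.42 in the 4 MEF arrays. The hepatocyte and MEF arrays were separated by 9.71 ± 0.098. Apoe, the ligand by which remnant lipoproteins are taken up, had levels of 14.26 to 14.37 (median 14.32) in the 10 hepatocyte arrays, against 4.88, 5.13, 5.16 and 5.23 in the 4 MEF arrays (9.21 ± 0.067, adjusted p = 3.91e-07). Apoa1, the main protein of high density lipoprotein, differed by 8.83 ± 0.064.

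**Figure D3:**
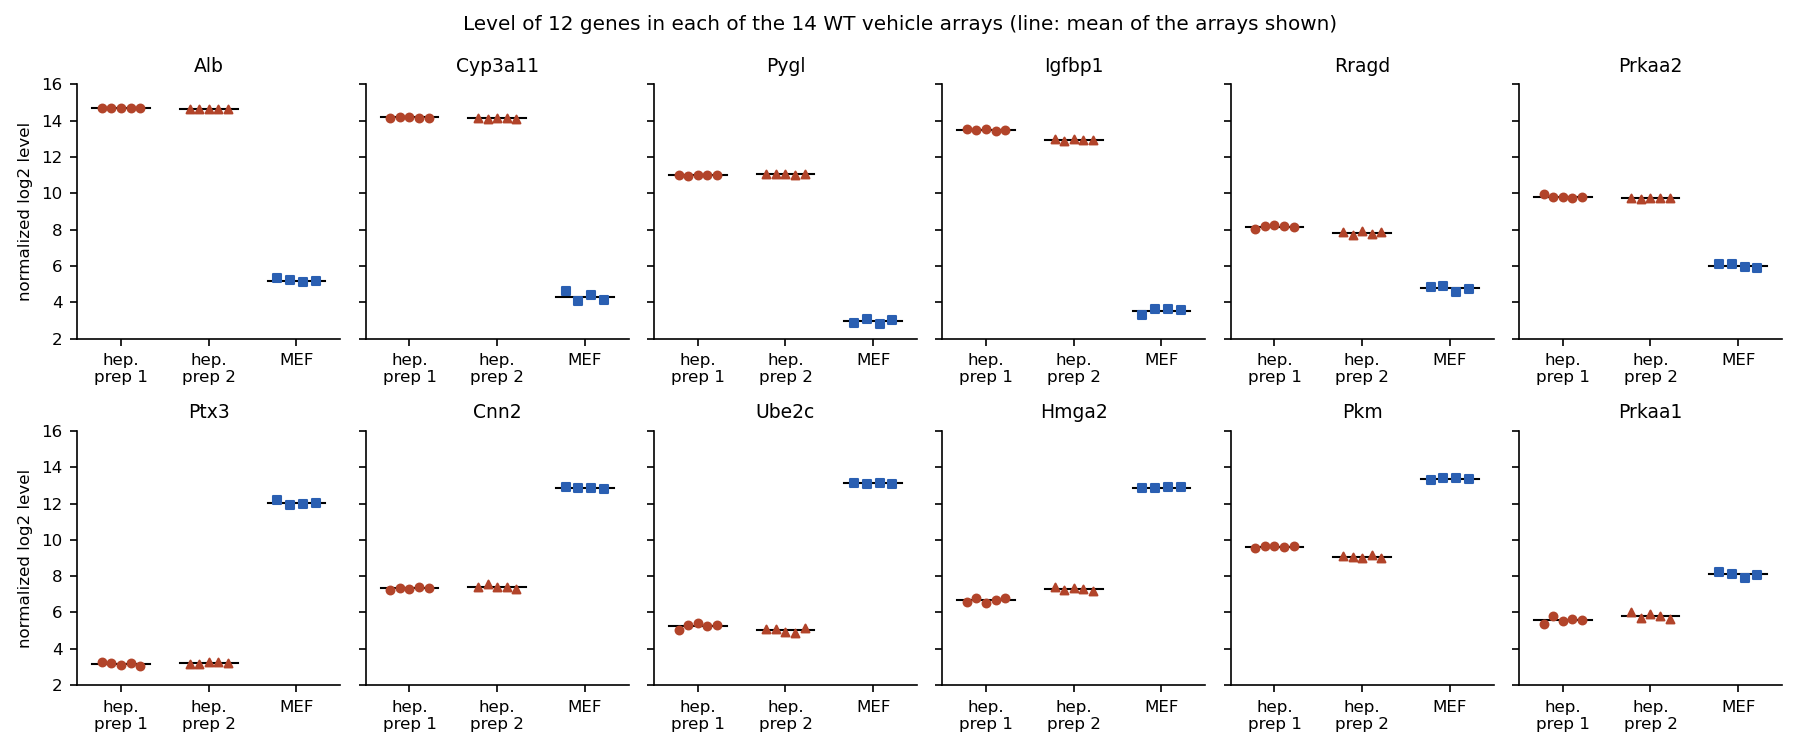
Normalized log2 level (y axis) of 12 genes in each of the 14 WT vehicle arrays, with hepatocyte preparation 1 (circles) and 2 (triangles) left of MEFs (squares) and a line at the mean of the arrays shown. In every panel the hepatocyte arrays lie apart from the MEF arrays, above them in the upper row and below them in the lower row.

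Enzymes of foreign compound metabolism followed. All 18 measured cytochrome P450 genes were higher in hepatocytes by at least 8-fold (median 7.43). Cyp3a11, a main oxidase of drugs and steroids, had levels of 14.11 to 14.23 (median 14.15) in the 10 hepatocyte arrays, against 4.60, 4.09, 4.42 and 4.12 in the 4 MEF arrays (9.85 ± 0.088). Cyp2d10 differed by 9.63 ± 0.086 and Cyp2f2 by 9.14 ± 0.148. Of 18 conjugating enzyme genes 17 were higher (median 5.18), with the glucuronosyltransferase gene Ugt2b5 at 9.84 ± 0.167, the glycine transferase gene Glyat at 9.26 ± 0.138 and the sulfotransferase gene Sult1d1 at 9.22 ± 0.2. Several of these enzymes belong to gene clusters with similar sequences. Nat8, an acetyltransferase gene, was not called (0.93 ± 0.163).

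Bile acid genes were higher for 15 of 16 members, with a median of 3.89. Slc27a5, which activates bile acids before conjugation, had levels of 12.39 to 12.66 (median 12.50) in the 10 hepatocyte arrays, against 3.89, 3.97, 4.06 and 3.86 in the 4 MEF arrays (8.57 ± 0.111). Baat, which joins them to taurine or glycine, differed by 6.84 ± 0.168 and the canalicular export pump gene Abcc2 by 6.54 ± 0.089. Cyp7a1, the rate-limiting enzyme of the classical pathway and named here after its value was seen, differed by 1.73 ± 0.11. Of 14 solute carriers and channels of the liver 12 were higher (median 2.97), among them the aquaporin genes Aqp8 (6.88 ± 0.182) and Aqp9 (6.49 ± 0.146) and the transporter gene Abcc6 (4.45 ± 0.119).

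Nitrogen metabolism was divided. All 19 genes of amino acid breakdown were higher in hepatocytes (median 5.16), including the tryptophan dioxygenase gene Tdo2 (8.27 ± 0.444), the betaine methyltransferase gene Bhmt (7.21 ± 0.643) and the lysine degradation gene Aass (6.98 ± 0.234). Urea cycle and ammonia genes were higher for 6 of 9 and lower for 1. Cps1, the entry enzyme of the cycle, had levels of 13.49 to 13.72 (median 13.64) in the 10 hepatocyte arrays, against 4.70, 4.30, 4.30 and 4.44 in the 4 MEF arrays (9.20 ± 0.117, adjusted p = 5.23e-07). Arg1, which releases urea, had 12.95 to 13.56 in hepatocyte arrays (median 13.21) and 4.74, 4.63, 4.63 and 4.74 in MEF arrays, a difference of 8.55 ± 0.343, and Nags, which makes the activator of Cps1, differed by 4.05 ± 0.136. Oat, ornithine aminotransferase, was lower (-1.36 ± 0.188), though by under 10 percentile points in ranks within each array. The middle enzyme Ass1 was not called (0.10 ± 0.131), nor was glutamine synthetase, Glul (0.28 ± 0.206), both named after their values were seen.

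Genes that make glucose were higher for 7 of 10 members (median 3.21). Fbp1, which removes a phosphate from fructose bisphosphate, had levels of 11.21 to 11.35 (median 11.33) in the 10 hepatocyte arrays, against 4.78, 4.81, 4.59 and 4.78 in the 4 MEF arrays (6.57 ± 0.148). Pck1, the first committed enzyme of the pathway, differed by 6.52 ± 0.114 and the alanine aminotransferase gene Gpt by 3.92 ± 0.08. The 3 probe sets of Pck1 ranged from -0.21 to 6.52, and the one used was the highest. Ppargc1a (0.37), Foxo1 (0.82) and Mdh1 (0.10) were not called.

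Glucose enzymes were set side by side form by form. Of 8 liver forms 6 were higher in hepatocytes and none lower, and of 14 other forms 6 were lower, 2 higher and 6 not called, beside 16.1% higher and 14% lower of all genes. Glycogen phosphorylase showed both directions: the liver form Pygl had levels of 10.96 to 11.08 (median 11.02) in the 10 hepatocyte arrays, against 2.88, 3.05, 2.82 and 3.02 in the 4 MEF arrays (8.08 ± 0.092), and the brain form Pygb 6.08 to 6.41 in hepatocyte arrays (median 6.20) and 8.31, 8.42, 8.33 and 8.32 in MEF arrays (-2.12 ± 0.107). Each form separated the 14 arrays fully, in opposite directions. For glycogen synthase the liver form Gys2 differed by 3.28 ± 0.093, and Gys1, the form of muscle and other tissues, by -0.67 ± 0.16, below the fold limit. Among glucose carriers Slc2a2, which encodes GLUT2, had levels of 9.21 to 9.69 (median 9.45) in the 10 hepatocyte arrays, against 3.36, 3.25, 3.26 and 3.28 in the 4 MEF arrays (6.16 ± 0.227). Slc2a1, which encodes GLUT1, did not pass the test (0.31 ± 0.136, adjusted p = 0.09).

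Hexokinase genes were lower in hepatocytes. Hk1 had levels of 5.26 to 5.80 (median 5.44) in the 10 hepatocyte arrays, against 9.92, 10.05, 9.92 and 9.88 in the 4 MEF arrays (-4.49 ± 0.133), and Hk2 7.05 to 7.97 in hepatocyte arrays (median 7.50) and 8.84, 8.83, 8.84 and 8.87 in MEF arrays (-1.30 ± 0.278). Gckr, the liver inhibitor of glucokinase, was higher (4.03 ± 0.165), as were the fructose enzyme genes Khk (4.70 ± 0.112) and Tkfc (3.93 ± 0.092). Pkm, the pyruvate kinase of most tissues, had levels of 9.0 to 9.66 (median 9.36) in the 10 hepatocyte arrays, against 13.32, 13.42, 13.41 and 13.37 in the 4 MEF arrays (-4.04 ± 0.266). The liver pyruvate kinase gene Pklr differed by 0.82 ± 0.107 on the probe set used, below the fold limit, and by up to 4.11 on another, so its result depends on the probe set. Phosphofructokinase was lower in its muscle form Pfkm (-2.42 ± 0.103), while its liver form Pfkl (-0.12 ± 0.136) and platelet form Pfkp (-0.02 ± 0.665) were not called. The preparations differed for Pfkp, at 9.13 and 7.89. Eno2 was lower (-1.94 ± 0.081). Ldha (-0.01 ± 0.066), Ldhb (-0.22 ± 0.119) and Aldoa (0.11 ± 0.116) were not called, and another probe set of Ldhb gave -3.71. Both higher calls, Aldoc (1.2 ± 0.415) and Pfkfb3 (1.00 ± 0.098), were lost without hepatocyte preparation 1 (0.83 and 0.93) and in other settings, Pfkfb3 also without MEF array 3 (0.97).

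**Figure D4:**
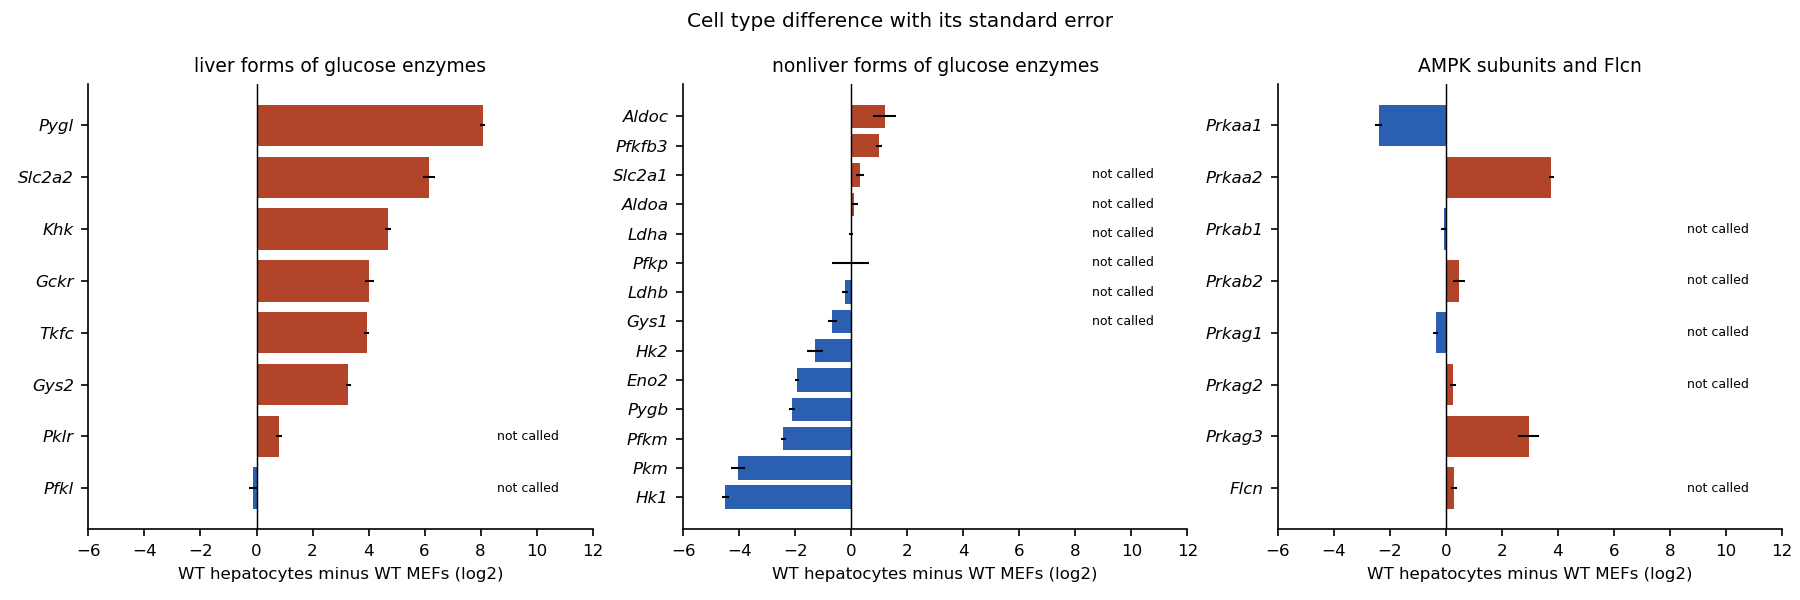
Difference between WT hepatocytes and WT MEFs (log2, bars, with SE from the fit) for liver forms of glucose enzymes (left), other forms (middle), and AMPK subunits with Flcn (right), with genes that were not called marked. Liver forms run from -0.12 (Pfkl, not called) to 8.08 (Pygl), other forms from -4.49 (Hk1) to 1.2 (Aldoc) with 6 not called, and the AMPK catalytic subunits Prkaa1 (-2.40) and Prkaa2 (3.77) point in opposite directions.

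Fatty acid oxidation and ketone body genes were higher for 13 of 17 and lower for 2 (median 1.65). With ranks within each array the count was 8 higher. The peroxisomal enzymes Acaa1b (6.19 ± 0.579) and Ehhadh (5.89 ± 0.215) and the liver fatty acid binding protein gene Fabp1 (6.05 ± 0.433) led. Oxct1, which extrahepatic tissues need to burn ketone bodies, was lower, with levels of 6.38 to 6.80 (median 6.59) in the 10 hepatocyte arrays, against 11.91, 11.93, 11.82 and 11.95 in the 4 MEF arrays (-5.31 ± 0.103, adjusted p = 1.29e-06). The carnitine transferase form of the brain, Cpt1c, was lower as well (-2.36 ± 0.094). Peroxisome genes were higher for 11 of 14 (median 2.55), with urate oxidase, Uox, at 7.23 ± 0.081, Acox2 at 6.41 ± 0.125 and the acyl-CoA synthetase gene Slc27a2 at 6.41 ± 0.115.

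Fatty acid and triglyceride synthesis genes were higher for 12 of 23 and lower for 3 (median 1.2). Scd2, a stearoyl-CoA desaturase gene, had levels of 3.93 to 4.42 (median 4.21) in the 10 hepatocyte arrays, against 12.92, 12.87, 12.84 and 12.85 in the 4 MEF arrays, which gave -8.68 ± 0.141 or 410-fold lower in hepatocytes. Its paralog Scd1, named here after its value was seen, was higher (2.80 ± 0.056). The regulator gene Mlxipl (6.29 ± 0.097) and the elongase gene Elovl2 (5.69 ± 0.172) were higher, and Fasn, fatty acid synthase, was lower (-1.53 ± 0.097), by under 10 percentile points in ranks within each array. Sterol synthesis genes were mostly not called (14 of 17). Insig2, which retains the sterol sensor, was higher (3.39 ± 0.329), Dhcr7 was slightly higher (1.12 ± 0.161) and Idi1 slightly lower (-1.06 ± 0.154). Both the Dhcr7 and the Idi1 call were lost with ranks within each array. Dhcr7 also lost its call without preparation 2 (0.99) and Idi1 without preparation 1 (-0.89).

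Iron and heme genes were higher for 7 of 11 and lower for 2. Hemopexin, Hpx, which binds heme in plasma, had levels of 14.47 to 14.54 (median 14.51) in the 10 hepatocyte arrays, against 5.35, 5.50, 5.38 and 5.15 in the 4 MEF arrays (9.16 ± 0.069). The iron exporter gene Slc40a1, which macrophages also express, was higher (6.66 ± 0.226). Id1, a target of the bone morphogenetic protein signal that controls hepcidin, was lower (-5.70 ± 0.094), as was the transferrin receptor gene Tfrc (-1.47 ± 0.245), for which the mean of all probe sets gave -0.45.

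Liver transcription factor genes were higher for all 17 members, with a median of 4.41. Mlxipl, a carbohydrate-responsive factor, had levels of 10.96 to 11.17 (median 11.07) in the 10 hepatocyte arrays, against 4.95, 4.65, 4.82 and 4.69 in the 4 MEF arrays. Foxa3, a forkhead factor of liver genes, had 9.83 to 10.31 in hepatocyte arrays (median 10.09) and 4.35, 4.82, 4.83 and 4.35 in MEF arrays (5.47 ± 0.287), and Hhex, a homeobox factor of early liver development, differed by 5.39 ± 0.165. Hnf4a, a central factor of the network and named after its value was seen, differed by 5.13 ± 0.093. Epithelial genes were higher for 11 of 15. The keratin pair of simple epithelia was higher in all hepatocyte arrays: Krt18 had levels of 13.90 to 14.06 (median 13.97) in the 10 hepatocyte arrays, against 4.17, 4.13, 4.15 and 4.04 in the 4 MEF arrays (9.85 ± 0.101), and Krt8 differed by 8.74 ± 0.079. E-cadherin, Cdh1, differed by 6.90 ± 0.132. N-cadherin, Cdh2, was lower (-1.37 ± 0.119), with -0.27 on the probe set that was highest in hepatocytes.

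Glucocorticoid-responsive genes were higher for 10 of 13 and lower for 1 (median 3.75), in cells of which the hepatocytes had dexamethasone in the medium. With ranks within each array 6 were higher. Igfbp1, a hepatic binding protein of insulin-like growth factors whose promoter is printed above, had levels of 12.88 to 13.55 (median 13.23) in the 10 hepatocyte arrays, against 3.32, 3.63, 3.60 and 3.58 in the 4 MEF arrays (9.70 ± 0.274, adjusted p = 4.1e-06). The tyrosine aminotransferase gene Tat differed by 6.21 ± 0.27 and the lipase inhibitor gene Angptl4 by 5.05 ± 0.092, with 0.47 on its other probe set. Sgk1, a kinase gene induced by glucocorticoids and serum, was lower (-1.92 ± 0.166) in WT, by under 10 percentile points in ranks, and differed by 0.03 in dKO cells. Fkbp5, a widely used glucocorticoid target named after its value was seen, was not called (0.46 ± 0.091). Of 16 immediate early and serum response genes 3 were higher and 2 lower (median 0.00). The share called (31.2%) was near that of all genes (30.1%). With the values as deposited 5 were lower. Atf3, a stress-induced factor, had levels of 9.88 to 12.21 (median 10.95) in the 10 hepatocyte arrays, against 6.82, 7.07, 6.83 and 6.87 in the 4 MEF arrays, with preparation means of 12.02 and 10.01 and a difference of 4.12 ± 0.838. Klf4 (-1.41 ± 0.102) and Fosl2 (-1.53 ± 0.157) were lower, and another probe set of Fosl2 gave 1.01.

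Insulin and growth factor genes were higher for 8 of 18 and lower for 4, and the median of the list was 0.03 and changed sign with the values as deposited (-0.26). Igf1, which the liver releases into blood, had levels of 12.15 to 12.34 (median 12.26) in the 10 hepatocyte arrays, against 6.56, 6.39, 6.45 and 6.35 in the 4 MEF arrays (5.82 ± 0.108). Igfbp2 differed by 7.82 ± 0.201 and the insulin receptor gene Insr by 2.64 ± 0.09. The receptor for IGF1, Igf1r, was lower (-3.52 ± 0.113) and is named after its value was seen, so the ligand and its receptor differed in opposite directions. Grb10, an adaptor that inhibits both receptors, was lower (-3.84 ± 0.131), as was Igfbp7 (-3.59 ± 0.25), whose 3 probe sets ranged up to 0.62. The 3 probe sets of Grb10 ranged up to -0.87.

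Collagen genes were the clearest matrix group in the opposite direction. Of 18 chains 16 were lower in hepatocytes and 1 higher, with a median of -2.51. Col1a1, a chain of fibrillar type I collagen, had levels of 5.11 to 5.37 (median 5.26) in the 10 hepatocyte arrays, against 12.67, 12.44, 12.52 and 12.58 in the 4 MEF arrays (-7.30 ± 0.09, 158-fold lower). Its partner chain Col1a2 had 6.68 to 7.05 in hepatocyte arrays (median 6.88) and 13.87, 13.94, 13.94 and 13.83 in MEF arrays (-7.01 ± 0.091), and the type V chain Col5a2 differed by -7.07 ± 0.145. Col18a1, a chain of basement membranes that hepatocytes make, was higher (2.80 ± 0.093).

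Other matrix genes were less uniform. Of 25 glycoproteins and proteoglycans 11 were lower and 3 higher (median -0.65). Versican, Vcan, had levels of 3.48 to 3.79 (median 3.66) in the 10 hepatocyte arrays, against 10.69, 10.73, 10.83 and 10.79 in the 4 MEF arrays (-7.12 ± 0.079), although the highest of its 8 probe sets gave 0.24. Thrombospondin 1, Thbs1, differed by -5.44 ± 0.165, and the laminin chain Lamb1 by -5.98 ± 0.076, with -0.05 on the probe set that was highest in hepatocytes. Dcn, decorin, differed in the other direction, with levels of 8.13 to 9.38 (median 8.73) in the 10 hepatocyte arrays, against 5.40, 5.29, 5.44 and 5.44 in the 4 MEF arrays (3.34 ± 0.556). Its preparation means were 8.23 and 9.24, and its other probe set gave -0.23, so the direction rests on 1 probe set. The laminin gene Lama4 was higher as well (1.36 ± 0.157), as was Nid1 (1.13 ± 0.213). Fibronectin, Fn1, was not called (0.22 ± 0.156). Matrix enzymes and inhibitors were lower for 14 of 20 and higher for none (median -2.98), although 1 was higher with ranks within each array. Loxl1, which cross-links elastin, had 4.09 to 4.85 in hepatocyte arrays (median 4.43) and 11.11, 11.19, 11.12 and 11.07 in MEF arrays (-6.68 ± 0.088), and the protease inhibitor genes Timp2 (-5.24 ± 0.098) and Timp3 (-5.22 ± 0.132) were lower. The 6 probe sets of Timp2 ranged from -7.43 to -0.76.

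The contractile apparatus was lower in hepatocytes for 12 of 21 genes and higher for none (median -1.59). However, 1 was called higher with ranks within each array, and also without MEF array 2, 3 or 4. Cnn2, whose promoter with its CArG box is printed above, had levels of 7.24 to 7.55 (median 7.38) in the 10 hepatocyte arrays, against 12.90, 12.84, 12.85 and 12.79 in the 4 MEF arrays (-5.47 ± 0.106). Smooth muscle actin, Acta2, had 7.63 to 8.24 in hepatocyte arrays (median 7.86) and 13.21, 13.15, 13.22 and 13.17 in MEF arrays (-5.30 ± 0.207), but 1 of its 3 probe sets gave -0.05. Vimentin, Vim, the intermediate filament of mesenchymal cells, had 8.99 to 9.24 in hepatocyte arrays (median 9.07) and 14.13, 14.15, 14.16 and 14.11 in MEF arrays (-5.06 ± 0.081). The list of targets of the mechanosensitive coactivator YAP also holds its partner genes Tead1 and Tead2. Of its 14 members 8 were lower and 1 was higher, and 5 were lower when probe sets of 1 gene were averaged. The receptor kinase gene Axl differed by -5.84 ± 0.153, with -0.11 on its other probe set, and Tead2, a DNA-binding partner of YAP, by -4.80 ± 0.076. Ccn1 (-0.65) and Ccn2 (-0.67), standard YAP targets named after their values were seen, were not called.

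Mesenchymal transcription factor genes were lower for 14 of 24 and higher for none (median -2.59), while with the probe set that was highest in hepatocytes 2 were higher. The homeobox gene Prrx2 had levels of 3.86 to 4.31 (median 4.04) in the 10 hepatocyte arrays, against 11.40, 11.42, 11.54 and 11.44 in the 4 MEF arrays (-7.40 ± 0.117). Hmga2, a chromatin protein of embryonic cells, had 6.51 to 7.38 in hepatocyte arrays (median 6.99) and 12.88, 12.84, 12.92 and 12.89 in MEF arrays (-5.91 ± 0.378), and Twist2 differed by -5.68 ± 0.086. Vgll3, a cofactor of TEAD factors, and Sfrp2, a Wnt modulator, were among the 12 largest negative differences of all genes. Sfrp2 had levels of 3.17 to 3.65 (median 3.36) in the 10 hepatocyte arrays, against 11.70, 11.53, 11.68 and 11.55 in the 4 MEF arrays (-8.21 ± 0.101), and Vgll3 differed by -7.99 ± 0.081. Ptx3, a pattern recognition protein, had the largest negative difference: 3.03 to 3.28 in hepatocyte arrays (median 3.22) and 12.17, 11.91, 11.98 and 12.02 in MEF arrays, -8.83 ± 0.076 or 454-fold lower. S100a4, a calcium-binding protein common in fibroblasts, differed by -7.98 ± 0.265 and the protein kinase A subunit gene Prkar2b by -7.81 ± 0.073.

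Of 30 measured Hox genes 6 were lower in hepatocytes, 1 was higher and 23 were not called, with a median of -0.12. All genes were called in 30.1% and lower in 14%. The 6 lower genes were Hoxa10, Hoxd13, Hoxa11, Hoxa5, Hoxa2 and Hoxa7, so 5 belong to the A cluster. Hoxa10 had levels of 2.63 to 2.88 (median 2.75) in the 10 hepatocyte arrays, against 9.70, 9.45, 9.61 and 9.69 in the 4 MEF arrays (-6.84 ± 0.076). Hoxd13, the most 5′ gene of its cluster and a gene of distal limb buds, had 4.07 to 4.31 in hepatocyte arrays (median 4.17) and 10.22, 10.02, 10.26 and 10.18 in MEF arrays (-5.99 ± 0.078). Hoxa11 differed by -4.42 ± 0.084. Hoxd8 was higher (1.24 ± 0.081) and was not called with the mean of its probe sets (0.38).

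Surface receptors showed different sets in the 2 cell types. Of 27 integrins and receptors 8 were lower and 7 higher. The growth factor receptor gene Pdgfrb had levels of 3.21 to 3.86 (median 3.62) in the 10 hepatocyte arrays, against 10.19, 10.27, 10.08 and 10.25 in the 4 MEF arrays (-6.62 ± 0.182), and the mesenchymal cadherin gene Cdh11 differed by -6.14 ± 0.068. Egfr, a receptor of hepatocyte growth control, was higher, with 10.76 to 10.95 in hepatocyte arrays (median 10.85) and 7.39, 7.18, 7.52 and 7.30 in MEF arrays (3.51 ± 0.141), and its 7 probe sets ranged from -0.05 to 3.94. Nt5e was higher on the probe set used (2.06 ± 0.216), and its probe sets ranged from -0.07 to 6.05. Of 11 fetal and imprinted genes 8 were not called, and the share called (27.3%) was near that of all genes (30.1%). The fetal liver protein gene Afp was higher (2.4 ± 0.359), and the RNA-binding protein genes Igf2bp1 (-2.55 ± 0.138) and Igf2bp3 (-1.08 ± 0.122) were lower, the second not without preparation 2 (-0.98). Krt19, a keratin of bile duct cells, was lower (-4.65 ± 0.087).

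Cell division genes separated the cell types nearly without exception. Of 29 cell cycle genes 28 were lower in hepatocytes and 1 higher, 22 of them at least 8-fold lower, with a median of -5.26. Bub1, a checkpoint kinase of mitosis, had levels of 3.00 to 3.45 (median 3.15) in the 10 hepatocyte arrays, against 11.20, 11.31, 11.26 and 11.33 in the 4 MEF arrays (-8.12 ± 0.079, adjusted p = 4.05e-07, 278-fold lower). Birc5, which encodes survivin, had 4.16 to 4.74 in hepatocyte arrays (median 4.45) and 12.41, 12.40, 12.40 and 12.41 in MEF arrays (-7.94 ± 0.152), and the proliferation marker Mki67 had 3.94 to 4.29 in hepatocyte arrays (median 4.13) and 11.80, 11.85, 11.76 and 11.80 in MEF arrays (-7.69 ± 0.087). Every hepatocyte array lay below every MEF array for all 29 members except Cdkn1a, for which every one lay above. Of all genes 14% were called lower, and for 71.9% the arrays did not overlap. Cdkn1a, the inhibitor p21 of cyclin-dependent kinases, had 12.30 to 12.55 in hepatocyte arrays (median 12.46) and 8.77, 8.79, 8.76 and 8.80 in MEF arrays (3.67 ± 0.098). Its relatives in cell cycle arrest, Cdkn2a (-7.54 ± 0.107) and Cdkn2b (-2.42 ± 0.096), were lower in hepatocytes and are named after their values were seen.

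Outside the list, Ube2c, a ubiquitin-conjugating enzyme of mitotic exit with its promoter printed above, had levels of 4.84 to 5.43 (median 5.12) in the 10 hepatocyte arrays, against 13.13, 13.09, 13.13 and 13.09 in the 4 MEF arrays (-7.97 ± 0.127). Cep55, of the final cut between daughter cells, had 3.48 to 4.18 in hepatocyte arrays (median 3.85) and 11.58, 11.50, 11.57 and 11.54 in MEF arrays (-7.71 ± 0.107). Trim59 differed by -7.96 ± 0.104 and the surface protein gene Cd24a by -7.84 ± 0.793, with preparation means of 6.39 and 4.87 for Cd24a. DNA replication genes were lower for 26 of 27 members and higher for none (median -3.18). The origin licensing gene Cdc6 had 3.11 to 4.00 in hepatocyte arrays (median 3.60) and 10.29, 10.40, 10.29 and 10.33 in MEF arrays (-6.80 ± 0.092), and the nucleotide synthesis genes Tk1 (-6.19 ± 0.096) and Rrm2 (-4.91 ± 0.273) were lower. Orc1 differed by -0.80 ± 0.092, below the fold limit.

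AMPK, the target of the compounds of the series, is a trimer of a catalytic α, a scaffold β and a nucleotide-binding γ subunit. Its catalytic subunits differed in opposite directions. Prkaa1, which encodes AMPKα1 and lies at chr15:5143861-5181899 on GRCm38.p6, had levels of 5.39 to 6.01 (median 5.67) in the 10 hepatocyte arrays, against 8.24, 8.14, 7.92 and 8.08 in the 4 MEF arrays. The arrays did not overlap, and the difference, lower in hepatocytes, was -2.40 ± 0.118 (adjusted p = 3.05e-05). Prkaa2, which encodes AMPKα2 and lies at chr4:105029649-105109898, had 9.70 to 9.96 in hepatocyte arrays (median 9.77) and 6.11, 6.10, 5.94 and 5.87 in MEF arrays, a higher level in hepatocytes (3.77 ± 0.1, adjusted p = 3.34e-06), and its 3 probe sets ranged from 1.06 to 4.10. The scaffold genes were not called, with Prkab1 at -0.08 ± 0.088 and Prkab2 at 0.47 ± 0.23. Among γ subunits Prkag1 (-0.36 ± 0.089) and Prkag2 (0.26 ± 0.116) were not called, and another probe set of Prkag2 gave -1.65. Prkag3, the form best known from skeletal muscle, had 6.87 to 7.77 in hepatocyte arrays (median 7.38) and 4.21, 4.49, 4.45 and 4.39 in MEF arrays, a higher level in hepatocytes on its only probe set (2.95 ± 0.386). Camkk2, a calcium-dependent kinase that activates AMPK, was lower (-2.40 ± 0.132), and the kinase gene Stk11, which encodes LKB1, was not called (-0.41 ± 0.099). The 4 probe sets of Camkk2 ranged up to -0.58. Of the 13 AMPK subunits and upstream kinases 2 were higher and 2 lower, a share (30.8%) near that of all genes (30.1%). With the values as deposited 4 were lower.

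Folliculin and lysosome regulators were higher in hepatocytes for 11 of 16 and lower for none (median 1.12), a count of 5 higher with ranks within each array. Flcn, the folliculin gene, had levels of 9.08 to 9.38 (median 9.28) in the 10 hepatocyte arrays, against 9.01, 8.97, 8.86 and 9.04 in the 4 MEF arrays (0.28 ± 0.104, adjusted p = 0.0562) and was not called. Rragd, a Rag GTPase that links lysosomes to mTORC1, had 7.72 to 8.23 in hepatocyte arrays (median 7.95) and 4.86, 4.91, 4.55 and 4.75 in MEF arrays (3.22 ± 0.238), and the lowest of its 3 probe sets gave 0.06. Gpnmb, a glycoprotein of lysosome-rich cells including macrophages, differed by 3.44 ± 0.352 and the autophagy receptor gene Sqstm1 by 2.58 ± 0.06. The other probe set of Gpnmb gave 0.73. Macrophage markers moved in the same direction in the same arrays (13 of 14 higher), and their part was not tested.

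Several housekeeping groups differed by less than the fold limit. Among 22 nuclear genes of the respiratory chain 1 was called, Cox7a1, a subunit form of heart and muscle (1.26 ± 0.096), and the median was 0.10. None of 18 ribosomal protein genes (median -0.40, range -0.91 to 0.13) and none of 24 proteasome genes (median -0.48, range -0.99 to 0.22) passed the fold limit, beside 30.1% of all genes. With no fold limit 16 ribosomal and 18 proteasome genes were lower and 1 of each list was higher (limma, adjusted p under 0.05). Of all 17404 genes 5519 were then lower and 7102 higher. The arrays of the cell types did not overlap for 17 of the 18 ribosomal and 21 of the 24 proteasome genes, beside 71.9% of all genes. With the values as deposited 2 proteasome genes were called lower. Among 1077 genes in the top 10% by level in both cell types, the smallest differences were those of Ppp4r1, Mrps24, Txn1, Ptpn11, Slc35b1 and Znrd2. The thioredoxin gene Txn1 had levels of 13.78 to 13.86 (median 13.81) in the 10 hepatocyte arrays, against 13.83, 13.80, 13.84 and 13.80 in the 4 MEF arrays, and the arrays of the cell types overlapped. Ptpn11, a phosphatase in growth factor signalling, had 11.79 to 11.95 in hepatocyte arrays (median 11.89) and 11.87, 11.84, 11.92 and 11.88 in MEF arrays, again with overlap.

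The same contrast in dKO cells, whose differences are taken between other arrays but whose tests share 1 estimate of the spread with WT, called 5093 genes (29.3%), 2599 higher (14.9%) and 2494 lower (14.3%). With the spread from the WT samples only, the WT contrast called 5253 genes. Of the WT calls 4314 (82.3%) were also called in the same direction in dKO, which is 84.7% of the dKO calls, and 1360 of the 1397 calls of at least 8-fold were. Across 17404 genes the 2 sets of differences correlated at r = 0.947, a description over genes that share arrays and are not independent. The list counts were close for hepatocyte functions: plasma proteins had 22 of 22 higher, cytochrome P450 18 of 18, coagulation 17 of 18 and liver transcription factors 16 of 17 in dKO. The cell cycle list had again 28 lower and 1 higher, and DNA replication 26 lower.

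A test of the difference between the WT and the dKO contrasts called 798 genes (4.59%), 552 of them among the WT calls. Matrix and patterning lists held many: 8 of 18 collagens, 8 of 20 matrix enzymes, 9 of 24 mesenchymal transcription factors and 11 of 30 Hox genes, against 1 of 22 plasma protein genes and 2 of 17 liver transcription factor genes. Each MEF genotype is 1 culture, so the genotype and the culture cannot be told apart here. Sfrp2 differed by -8.21 in WT and -2.70 in dKO, Hoxd13 by -5.99 and -0.52, Col1a2 by -7.01 and -2.14, and Rragd by 3.22 and -0.31. For 16 genes both contrasts were called with opposite signs. The 6 with the largest genotype difference were Lox, a collagen cross-linking enzyme (-3.37 in WT and 1.98 in dKO), Rcan2 (-3.23 and 1.99), the oxidase subunit gene Cyba (-3.20 and 1.33), the DNA glycosylase gene Mpg (-1.09 and 2.96), the proteoglycan gene Omd (-1.70 and 2.28) and Tnfaip2 (-2.27 and 1.68). AMPKα1 also differed, with Prkaa1 at -2.40 in WT and -3.40 in dKO. The labels do not say which part of either AMPK gene was deleted, so the levels of Prkaa1 and Prkaa2 do not check the genotype.

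**Figure D5:**
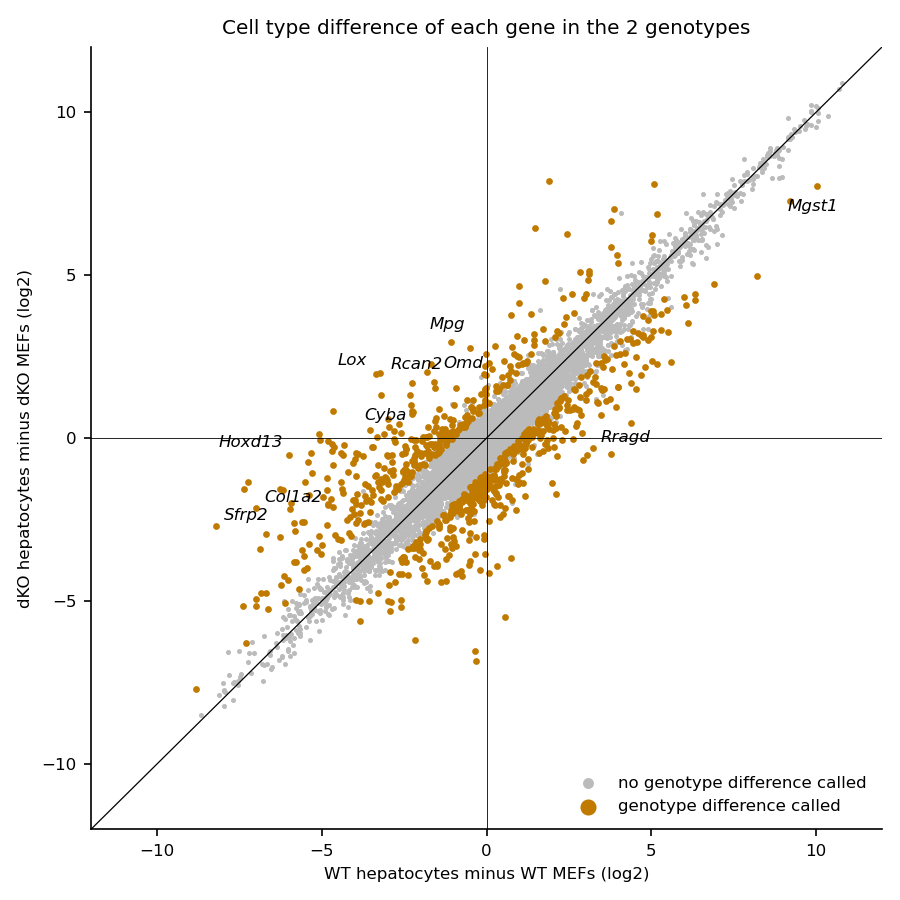
Difference between hepatocytes and MEFs of each of 17404 genes in WT (log2, x axis) and in dKO cells (log2, y axis), with genes whose genotype difference was called in orange and the line of equal differences. Most genes lie along the line (r = 0.947 across genes), and Lox, Rcan2, Cyba, Mpg and Omd lie in the upper left, with opposite signs in the 2 genotypes.

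The 2 hepatocyte preparations were not alike for every gene. A difference of at least 2-fold between them was seen for 50 genes, 31 of which were called between the cell types, beside 30.1% of all genes. Preparation 2 was lower for Atf3 (-2.01) and Cd24a (-1.52) and higher for Ces1d, a carboxylesterase gene (1.62), the replication gene Mcm6 (1.74) and Kitl (1.82), all named after their values were seen. Between the cell types Atf3 differed by 4.12, Cd24a by -7.84 and Mcm6 by -4.12, in each case more than between preparations. Kitl differed by -1.61 between the cell types, less than between preparations, as did Creld2 (0.83, against -1.84 between preparations) and Bhlha15 (1.24, against -1.60).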

How the data were processed

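RNA of each sample was hybridised to 1 Affymetrix mouse array as biotin-labelled cRNA. What the authors deposited is 1 log2 intensity for every probe set. RMA and Partek are named, without version, per the submitters' processing notes, which do not say whether both cell types went through RMA as 1 set. Of 45037 probe sets other than controls, 34945 had 1 gene symbol, 932 several and 9160 none; 34741 were matched to RefSeq, giving 17404 autosomal genes, and 626 genes on X or Y were left out. Each gene was read from the probe set with the highest mean of both cell types.

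Arrays were quantile normalized to the mean quantiles of the 14 WT vehicle arrays. Technical replicates were averaged, leaving 2 preparations per hepatocyte genotype and 1 mean per MEF genotype. limma 3.58.1 (R 4.3.3; lmFit, eBayes with trend; 2 residual degrees of freedom, median prior degrees of freedom 3.26) gave both contrasts and their difference, with Benjamini-Hochberg adjustment and a limit of 2-fold. On simulated data with 200 changed genes among 17404 it recovered 100% at log2 differences of 3 and 1.5, with 0 false calls. Every gene and sample was simulated with the same independent spread, unlike these data. The outcome therefore checks the code only and gives no error rate for these data. Tables and figures used Python 3.11.15, pandas 2.3.3 and matplotlib 3.10.9. Named genes are the 12 largest differences in each direction without overlap of arrays, up to 3 members per list with the largest called difference, up to 2 called against their list, AMPK subunits, Flcn, glucose enzyme forms, 6 genes with opposite signs in the genotypes, and 6 with the smallest difference among highly expressed genes. Members named as not called, beyond these, were named after their values were seen. Members and lists were chosen with earlier results of these data known. Alternatives covered normalization, probe set choice, a filter on dim genes, the unit of replication, blocks, the prior variance and the fold limit. Each hepatocyte preparation was also left out in turn, as was each WT MEF array for the WT contrast only.

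Same-numbered technical replicates of hepatocytes and MEFs did not deviate together (r = -0.13 to 0.178 across genes), so that number was not taken to pair samples. The difference between preparations 2 and 1 correlated at -0.764 between genotypes, so preparations of the 2 genotypes may share variation under crossed numbers. The main fit used no block and treated preparations as independent. It called 798 genes for the genotype difference, against 597 with same-numbered and 926 with crossed blocks.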

Additional observations from a re-analysis of the deposited data

Results flagged for a closer look

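Of 370 groups of arrays checked for the named genes, 21 held an array set apart by a gap that was large relative to the range of its group. The gap itself could be small, as for Saa1 (14.03, with the nearest other array at 13.99). Chance alone would flag about 1 in 20 groups of like arrays. The hepatocyte groups pool 2 preparations, so that rate need not hold for them. In WT hepatocytes the flagged levels were Bub1 (3.45), Mgst1 (13.80), Prkaa2 (9.96), Saa1 (14.03), Serpina1c (14.55) and Trim59 (3.93). In WT MEFs they were Abcc2 (3.65), Abcc6 (3.70), Dhcr7 (7.98), Fbp1 (4.59), Fosl2 (9.59), Hoxa11 (9.48), Hsd17b13 (2.73), Id1 (12.04), Igfbp1 (3.32), Mgst1 (3.55), Omd (8.14), Prkab2 (8.49), Tead2 (8.77), Timp3 (11.57) and Tk1 (11.47). The 15 in MEFs came from all 4 arrays, 5 each from the arrays of technical replicates 1 and 2.

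For 28 named genes the difference between hepatocytes and MEFs itself differed between WT and dKO (limma, adjusted p under 0.05 and at least 2-fold). The values below are the WT difference minus the dKO difference on the log2 scale. It was above 0 for Apoe (1.95), Col18a1 (1.95), Cox7a1 (1.91), Hhex (1.13), Mgst1 (2.28), Prkaa1 (1.00) and Rragd (3.53). It was below 0 for the matrix genes Col1a1 (-1.01), Col1a2 (-4.87), Lox (-5.35), Loxl1 (-3.72), Omd (-3.99) and Thbs1 (-1.46), for the homeobox genes Hoxa10 (-2.07), Hoxa11 (-3.94), Hoxd13 (-5.48) and Prrx2 (-2.23), and for the receptor and adhesion genes Pdgfrb (-1.36) and Cdh11 (-1.90). It was also below 0 for Sfrp2 (-5.51), Rcan2 (-5.22), Cyba (-4.53), Mpg (-4.05), Tnfaip2 (-3.95), Sgk1 (-1.95), Cftr (-1.54), Grb10 (-1.53) and Ptx3 (-1.13). Each MEF genotype is 1 culture, and genotype and culture cannot be told apart.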

How the results depend on the processing

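The count of WT calls depended most on the fold limit: 12621 genes (7102 higher, 5519 lower) with none and 1397 (791 higher, 606 lower) at 8-fold or more. Leaving out 1 WT MEF array at a time gave 5233 to 5264 calls in WT (2800 to 2827 higher, 2431 to 2441 lower). Without 1 hepatocyte preparation each group of that genotype held 1 sample, so counts of calls are not given for those fits. Named genes said to lose their call there are given with their difference, which fell below the fold limit. The dKO contrast and the genotype difference were not refitted without a MEF array. No called named gene changed sign under any alternative run. Genes near 0 that were not called did, such as Pfkp (0.60 without preparation 2) and Flcn (-0.06 with the values as deposited), as did the median of the insulin and growth factor list and that of all genes with the values as deposited (-0.26 and -0.12). With the preparation number as a replicate block, the calls were 5241 in WT, 5088 in dKO and 597 for the genotype difference; with the preparations crossed between genotypes, chosen after seeing the data, they were 5257, 5106 and 926. Calls of named genes were lost for 12 with the mean of all probe sets (Aldoc, Arhgef17, Cdh2, Cftr, Fosl2, Hoxd8, Idi1, Lama4, Mpg, Pfkfb3, Tfrc and Tnfaip2) and for 10 with ranks within each array (Cdh2, Dhcr7, Fasn, Idi1, Igf2bp3, Mpg, Oat, Sgk1, Sqstm1 and Tfrc); the cause was not tested. With the 4 MEF arrays as samples no named call changed. Levels near background limit the folds of genes low in 1 cell type: 11.1% of the genes higher in hepatocytes had MEF levels at or below the 10th percentile.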
